A study of Mus musculus with 16 samples.

Results

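Genes that build motile cilia were followed in the brains of newborn mice whose fathers' sperm had been kept in different ways before fertilization. The set holds 40 genes, listed as motile cilia genes of the ependyma. It was chosen by the measured difference between heated and freeze-dried pups in the same arrays, in which several of them were high. Their values in heated against freeze-dried and in irradiated against freeze-dried pups are therefore a description: counts of calls are printed beside those of all features, and nothing is read from them. Of the 40, 38 had a probe on the array and 35 were bright enough to test (well above background throughout 1 or more of the groups), out of 26477 genes and other features measured that way.

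All animals were C57BL/6 pups at postnatal day 1, and RNA came from the whole brain. The 4 groups of 4 pups derived from fresh spermatozoa, from freeze-dried (FD) spermatozoa, from FD spermatozoa irradiated with 5 Gy of X-rays, and from FD spermatozoa held at 95 °C for 1 h. They are called fresh, freeze-dried, irradiated and heated below, and the last 3 share the freeze-drying. The pups themselves received no treatment that the labels name, and the litters they came from are not given, so the p-values measure the spread between these pups. Each pup was hybridized to 1 one-colour array. Levels are given as log2 of the signal over the array's own 75th percentile and cannot be compared between genes, because each gene is read by its own probe.

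Motile cilia beat to move fluid, and in the brain they stand in tufts on the ependymal cells that line the ventricles. Ependymal cells descend from radial glia and grow their cilia around and after birth, so a brain at this age is still making them. The master switch of the cilia programme is the forkhead factor Foxj1, which works with RFX factors such as Rfx2 and Rfx3. Upstream of it, Mcidas commits a cell to many cilia, and Ccno is needed to multiply the centrioles from which cilia grow. The shaft of the cilium, the axoneme, holds dynein arms that drive the beat, radial spokes and a central pair that control it, and the doublet microtubules that carry all of these.

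RFX factors bind a motif made of a pair of inverted arms, and the sequences upstream of the cilia genes are shown because this motif is the known link between the set and its regulators. RefSeq promoter windows (GRCm38.p6, 250 bases before to 50 bases after each start) matched 36 of the 40 genes, with 39 windows. The arm GTTGCC, searched on both strands, was present in 19 of these 39 windows (48.72%), against 12.51% of the 32851 windows of all genes. It was present in 42.39% of the windows of other motile cilia genes and in 34.43% of those of primary cilium and transport genes. The paired site, GTTNCC followed after 2 bases by its reverse complement GGNAAC and so able to contain the arm, was found for 1 member, Iqca, where it overlaps the arm, and in 0.45% of all windows. Pairs with another spacing or with other letters in the second arm were not searched, so other members may carry them. The forkhead site TGTTTAC, searched the same way, was found in 3 member windows (7.69%; Ak7, Mlf1 and Stoml3) and in 3.65% of all windows. A match describes letters only. The 250 bases upstream of Iqca (chr1:90153437-90153686, minus strand), Ccdc153 (chr9:44240427-44240676, plus strand) and Dynlrb2 (chr8:116504765-116505014, plus strand), all GRCm38.p6 and printed along the gene's strand, carry the match in capitals. They are shown because these genes are among the members with the largest or steadiest differences described below.
Iqca: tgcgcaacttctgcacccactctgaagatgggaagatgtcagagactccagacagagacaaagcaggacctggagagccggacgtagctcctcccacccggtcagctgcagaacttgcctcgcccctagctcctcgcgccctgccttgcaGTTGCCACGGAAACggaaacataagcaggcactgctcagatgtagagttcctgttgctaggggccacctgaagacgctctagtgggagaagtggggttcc
Ccdc153: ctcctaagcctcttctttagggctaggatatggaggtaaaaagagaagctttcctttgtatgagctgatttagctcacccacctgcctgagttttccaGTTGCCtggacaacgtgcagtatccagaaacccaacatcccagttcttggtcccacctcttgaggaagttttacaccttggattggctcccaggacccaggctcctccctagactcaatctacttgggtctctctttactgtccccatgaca
Dynlrb2: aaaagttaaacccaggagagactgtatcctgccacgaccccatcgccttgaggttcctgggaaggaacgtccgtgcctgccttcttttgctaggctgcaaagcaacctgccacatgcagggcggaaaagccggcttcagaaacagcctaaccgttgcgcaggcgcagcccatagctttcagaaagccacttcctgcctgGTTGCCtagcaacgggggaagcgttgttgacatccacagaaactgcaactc

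The surroundings of the arm in 22 bases let the matches of further members be compared, read along the strand that carries GTTGCC (capitals). The first base of the match lay at -26 from the start in Dnai2, -13 in Hydin, -219 in Ccno, -20 in Dnah10, which had a further match at 11 bases after the start, and -39 in Lrrc23, which had a further match at -157.
Dnai2: accaGTTGCCtagcaaccctgg
Hydin: atctGTTGCCacagcaaccgca
Ccno: tgcgGTTGCCacggtgacgaca
Dnah10: cgccGTTGCCcaggtccccgtt
Lrrc23: ccctGTTGCCataacaacaata
The Dynlrb2 and Dnai2 sequences read alike over the capitals and the letters tagcaac that follow. Crocc2 had the arm 11 bases after its start, outside the upstream part, and Tmem212 had none in its window.

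The arrays were alike in brightness, with 59.9% to 66.1% of spots well above background and a 75th percentile between 720 and 958 intensity units. Fresh 1 and 2, irradiated 1 and 2 and the 4 freeze-dried pups were hybridized on slide 1, and the remaining fresh and irradiated pups with the 4 heated pups on slide 2, so freeze-dried and heated pups shared no slide. In 4 pups (fresh 2, freeze-dried 2, heated 2 and heated 4) the hindbrain gene Hoxb5 lay between -7.75 and -6.05. The Y-linked genes were high in 2 fresh, 4 freeze-dried, 3 irradiated and 1 heated pups. Counts of calls that rest on the heated group are given with and without the 4 pups low in Hox genes. This was done for the members and the other motile cilia genes only. Calls of single genes outside the members, and those of the remaining lists, are not given without these pups. Member differences are also given within a slide where the slide allows it. The tissue label was met by Ttr, Hes5 and Slc1a2, markers of choroid plexus, neural progenitors and astrocytes, which were well above background on all 16 arrays. Markers of sperm cells were not tested: 0 of 7 were well above background on all arrays and 6 were on none.

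All 35 measured members were well above background on all 16 arrays except Rfx2, which was on 14. Dnah12 and Ccdc40 had no matching probe, and Spag6, Spag17 and Stoml3 were not well above background often enough to be tested. Spag6l, an axonemal gene for which Spag6 is an older name, is no member and read 0.44 ± 0.22 in fresh, 0.39 ± 0.16 in freeze-dried, 0.57 ± 0.15 in irradiated and 0.68 ± 0.11 in heated pups (SD, n = 4).

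Most measured members were highest in pups of heated sperm. The set was chosen by a contrast with these pups, so the orders below are a description, with no share of all features beside them. Of the 35 measured members, 28 had their highest group mean in the heated group, and 25 fell in the order heated, then irradiated, then both fresh and freeze-dried. The mean level of the members, with each gene centred on its mean over 16 pups, was -0.157, -0.216, -0.157 and -0.141 in fresh 1 to 4 and -0.199, -0.242, -0.001 and -0.143 in freeze-dried 1 to 4. It was 0.053, 0.091, 0.017 and -0.045 in irradiated 1 to 4 and 0.254, 0.374, 0.177 and 0.335 in heated 1 to 4. All heated pups lay above all others on this mean, and freeze-dried 3 reached into the irradiated range. In whole-brain RNA, more ciliated cells and more cilia RNA in each such cell cannot be told apart.

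**Figure D1:**
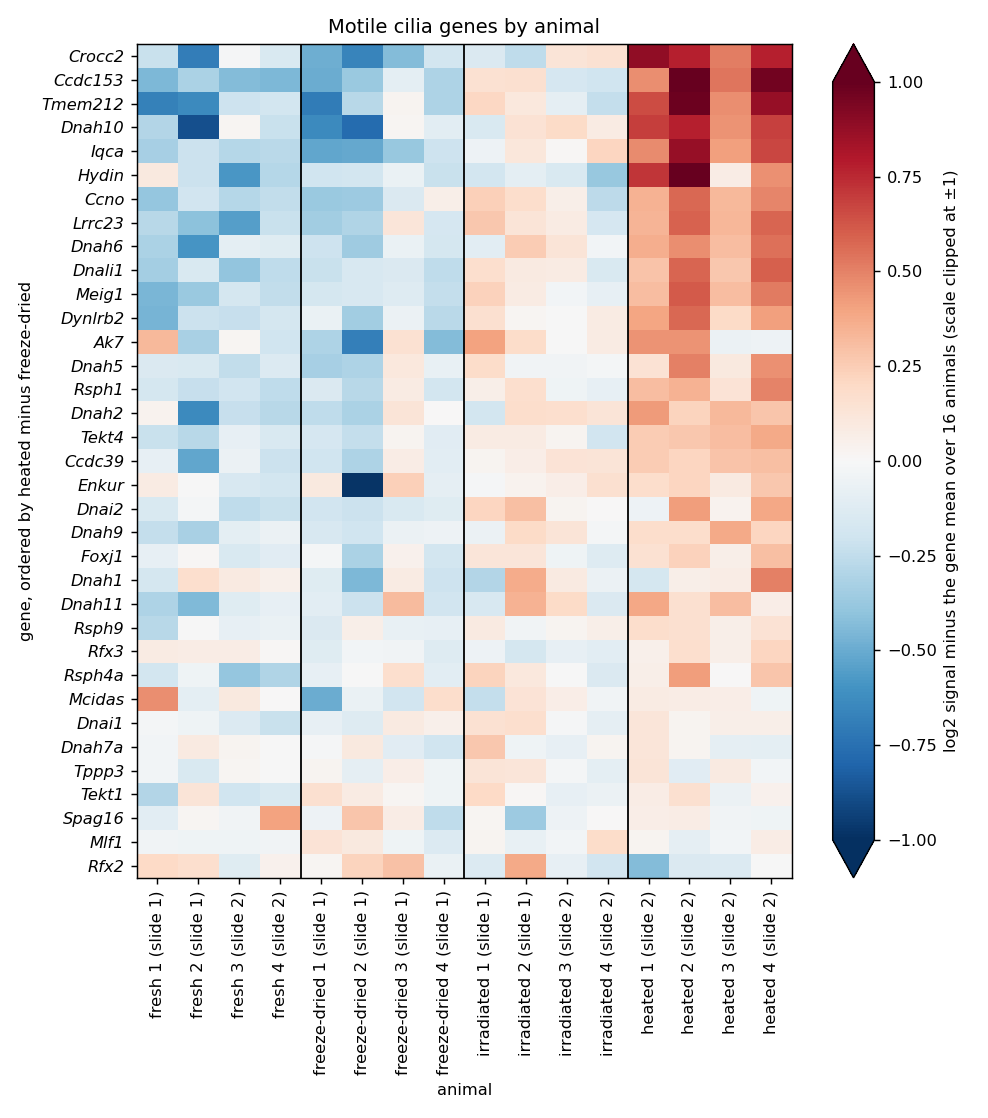
Log2 signal of the 35 measured motile cilia genes (rows, ordered by the heated minus freeze-dried difference) in each of 16 pups (columns, with the slide), centred on the mean of each gene; colours are clipped at ±1. The upper rows are red in the 4 heated columns, where Crocc2 lay 1.18 above the freeze-dried mean, and the lowest row, Rfx2, lay 0.30 below it.

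Among the regulators, Ccno, Foxj1 and Rfx3 were higher in every heated pup than in every freeze-dried pup, and Mcidas and Rfx2 overlapped between these groups. Foxj1 read 0.19, 0.28, 0.12 and 0.16 in fresh 1 to 4, 0.25, -0.05, 0.31 and 0.09 in freeze-dried 1 to 4, 0.39, 0.39, 0.23 and 0.14 in irradiated 1 to 4, and 0.42, 0.50, 0.33 and 0.57 in heated 1 to 4. All heated pups exceeded all fresh and freeze-dried pups, but heated 3 lay below irradiated 1 and 2. The Foxj1 mean was 0.31 (SE 0.086) above the freeze-dried and 0.27 above the fresh mean.

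Ccno read -1.55, -1.36, -1.45 and -1.41 in fresh, -1.54, -1.53, -1.31 and -1.11 in freeze-dried, -0.93, -0.99, -1.11 and -1.43 in irradiated, and -0.82, -0.59, -0.84 and -0.68 in heated pups. The heated values overlapped with no other group, and the irradiated values spread from the fresh range almost to the heated range. Heated and freeze-dried means differed by 0.64 (SE 0.115, 1.56-fold). Mcidas read 3.95, 3.39, 3.58 and 3.49 in fresh, 2.99, 3.42, 3.29 and 3.66 in freeze-dried, 3.25, 3.62, 3.55 and 3.45 in irradiated, and 3.57, 3.56, 3.55 and 3.44 in heated pups. The groups overlapped throughout, with a heated minus freeze-dried difference of 0.19, and the signal of this probe did not move with the other cilia genes (correlation 0.00). The other Mcidas probe was well above background on 1 array, with levels from -7.91 to -4.68, and was not kept. Whether the kept probe reads Mcidas RNA was not tested.

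Rfx3 read 2.49, 2.48, 2.48 and 2.42 in fresh, 2.29, 2.38, 2.37 and 2.28 in freeze-dried, 2.36, 2.23, 2.33 and 2.30 in irradiated, and 2.46, 2.58, 2.47 and 2.62 in heated pups. Fresh and heated pups overlapped and both lay above the freeze-dried and irradiated pups. Averaged over all its kept probes, Rfx3 differed by 0.28 between heated and freeze-dried pups and by 0.28 between heated and fresh pups, where the brightest probe alone gave 0.20 and 0.07. Rfx2 read -4.57, -4.60, -4.89 and -4.72 in fresh, -4.75, -4.54, -4.47 and -4.83 in freeze-dried, -4.90, -4.39, -4.85 and -4.96 in irradiated, and -5.20, -4.91, -4.90 and -4.77 in heated pups. These levels lie close to background, and heated and freeze-dried values overlapped (difference -0.30, SE 0.131).

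The members with the largest differences code for parts of the axoneme or for other proteins of ciliated cells. Crocc2, related to the rootlet protein that anchors cilia, read -2.97, -3.44, -2.76 and -2.90 in fresh, -3.24, -3.41, -3.18 and -2.93 in freeze-dried, -2.89, -3.00, -2.62 and -2.60 in irradiated, and -1.86, -1.97, -2.24 and -1.97 in heated pups. No heated value overlapped with another group, and the heated mean was 1.18 (SE 0.147, 2.26-fold) above the freeze-dried mean. Tmem212, a membrane protein gene used as an ependymal marker, read -2.61, -2.57, -2.14 and -2.12 in fresh, -2.63, -2.21, -1.91 and -2.24 in freeze-dried, -1.73, -1.83, -2.02 and -2.17 in irradiated, and -1.28, -0.95, -1.47 and -1.06 in heated pups. The heated pups again stood apart, while the other groups overlapped, and heated and freeze-dried means differed by 1.06 (SE 0.165, 2.08-fold).

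Ccdc153, a coiled-coil gene also used as an ependymal marker, read -1.94, -1.81, -1.93 and -1.94 in fresh, -1.99, -1.86, -1.59 and -1.80 in freeze-dried, -1.34, -1.33, -1.66 and -1.69 in irradiated, and -1.03, -0.48, -0.96 and -0.53 in heated pups. Heated pups were above irradiated pups and irradiated pups above fresh pups without overlap, and heated 2 and 4, both low in Hox genes, were the highest. The heated mean exceeded the freeze-dried mean by 1.06 (SE 0.131). Iqca, which codes for a protein of the link between doublets that restrains dynein, read -2.86, -2.75, -2.82 and -2.80 in fresh, -3.05, -3.04, -2.91 and -2.74 in freeze-dried, -2.58, -2.42, -2.52 and -2.32 in irradiated, and -2.06, -1.66, -2.12 and -1.86 in heated pups. Irradiated pups lay between the heated pups above and the fresh and freeze-dried pups below, with no overlap on either side. The heated minus freeze-dried difference was 1.01 (SE 0.099, 2.01-fold).

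Hydin, a large protein of the central pair, read -3.59, -3.90, -4.27 and -3.97 in fresh, -3.88, -3.87, -3.75 and -3.91 in freeze-dried, -3.87, -3.78, -3.84 and -4.06 in irradiated, and -2.97, -2.45, -3.61 and -3.23 in heated pups. It was the member with the widest spread among heated pups, and heated 3 lay just below fresh 1. Irradiated and freeze-dried pups were alike in level, with a difference of -0.03, and heated pups exceeded freeze-dried pups by 0.79 (SE 0.192). Lrrc23, a radial spoke protein, read -0.08, -0.21, -0.35 and -0.02 in fresh, -0.15, -0.10, 0.32 and 0.03 in freeze-dried, 0.47, 0.33, 0.28 and 0.03 in irradiated, and 0.54, 0.79, 0.53 and 0.78 in heated pups. All heated pups exceeded all others, and all irradiated pups exceeded all fresh pups. The heated mean was 0.63 (SE 0.119, 1.55-fold) above the freeze-dried mean.

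**Figure D2:**
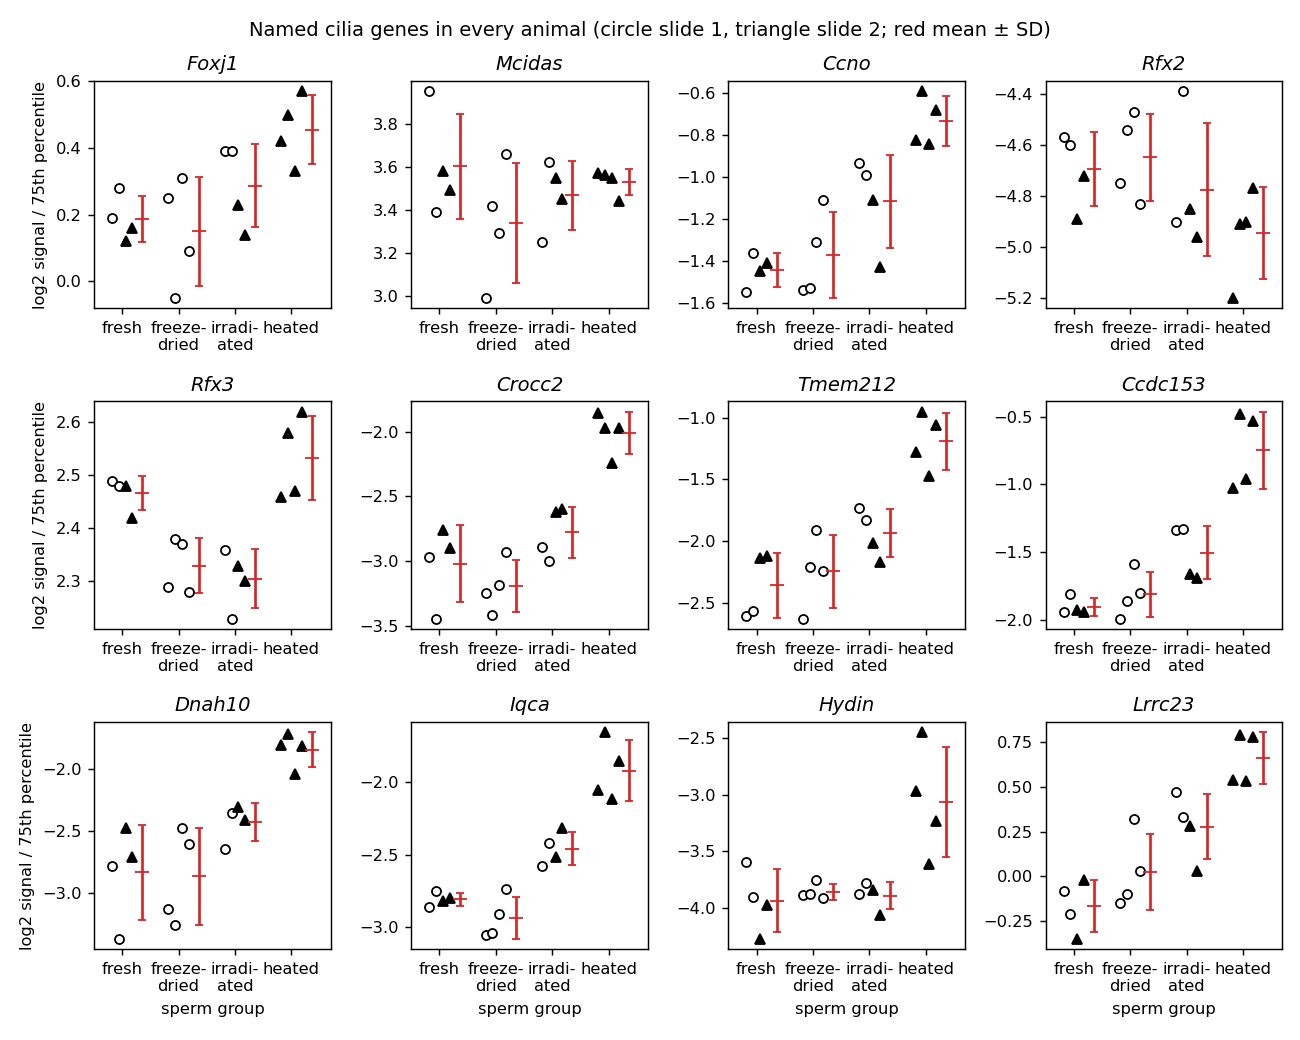
Level of the 5 regulators and of the 8 members with the largest heated minus freeze-dried difference (12 panels, since Ccno is in both sets) in every pup; the vertical axis is log2 signal relative to the 75th percentile of the array, circles are slide 1, triangles slide 2, and red bars show mean ± SD of 4 pups. In Crocc2, Tmem212, Ccdc153, Dnah10, Iqca, Ccno and Lrrc23 the 4 heated triangles lie above all other points. In Foxj1, Mcidas, Rfx2, Rfx3 and Hydin they do not.

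The dynein arm genes, which code for the motors of the beat, differed to very different extents between heated and freeze-dried pups. Dnah10, a heavy chain of an inner arm, read -2.78, -3.37, -2.47 and -2.71 in fresh, -3.13, -3.26, -2.47 and -2.60 in freeze-dried, -2.64, -2.35, -2.30 and -2.41 in irradiated, and -1.80, -1.71, -2.04 and -1.81 in heated pups. The low-Hox pups fresh 2 and freeze-dried 2 were the lowest of their groups and heated 2 the highest of all, and the heated mean was 1.03 (SE 0.192, 2.04-fold) above the freeze-dried mean. Over the 12 dynein chains tested, differences between heated and freeze-dried pups ran from 0.05 to 1.03 with a median of 0.40, and 7 were higher without overlap (11.4% of all features were). After Dnah10 came the light intermediate chain Dnali1 (0.63), the inner arm chain Dnah6 (0.62) and the roadblock light chain Dynlrb2 (0.58). Dnah6 differed by 0.34 on its other kept probe. The outer arm chains Dnah5, Dnah9 and Dnah11 differed by 0.46, 0.35 and 0.28. The outer arm intermediate chain Dnai1 differed by 0.08 and the inner arm chain Dnah7a by 0.05, well within their spread.

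The other members split in a similar way. Among radial spoke genes Rsph1 differed by 0.45 between heated and freeze-dried pups, and Rsph4a and Rsph9, proteins of the spoke head, by 0.19 each. Among doublet genes the tektin Tekt4 differed by 0.43 and the tektin Tekt1 by 0.00. Ccdc39, which with Ccdc40 sets the repeat along the doublet, differed by 0.40, and Meig1, known from sperm formation, by 0.61. The adenylate kinase Ak7 (0.52) and the doublet protein Enkur (0.37) had larger errors (SE 0.188 and 0.190); in Enkur, freeze-dried 2 read -1.55 and the other freeze-dried pups -0.66 to -0.33. The central pair gene Spag16 (0.00), the microtubule protein gene Tppp3 (0.02) and Mlf1 (-0.01) were level between these groups. On their other kept probes Ccdc39 differed by 0.17, Rsph9 by 0.07, Spag16 by -0.16 and Tppp3 by -0.03. The smallest to largest difference over all 35 members was -0.30 to 1.18, with a median of 0.40 beside 0.02 for all features.

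By limma, 18 of the 35 members were higher in heated than in freeze-dried pups at an adjusted p under 0.05 and 0 were lower, where 2.5% of all features were called higher and 1.36% lower. Groups did not overlap for 20 members, all of them higher, where 11.4% of all features were higher and 8.89% lower without overlap. These calls chose the set, so nothing is read from them. They ended when slide was a block in the fit, with 0 members called, as did those of all features (0 of 26477 were called). The members then had a median difference of 0.44 and a median SE of 0.143 in place of 0.108. Without the 4 pups low in Hox genes 1 of the 18 calls was left, that of Iqca, and the median difference was 0.34. Without freeze-dried 2 or heated 2 the 18 became 10, and without heated 4 they became 12. Shares of all features are not given for the fits without pups, so nothing is read from these drops.

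Heated pups also exceeded fresh pups, and here the slides can be held constant. This comparison shares the heated pups with the one that chose the set, so its calls are described in the same way. Over the 35 members the median difference was 0.47, 31 were higher, 18 were called higher (2.39% of all features) and 0 lower (0.54%), and 23 were higher without overlap (7.52% of all features) and 0 lower (3.78%). The largest differences were those of Tmem212 (1.17), Ccdc153 (1.15), Crocc2 (1.00), Dnah10 (0.99), Iqca (0.88) and Hydin (0.87). Within slide 2, between heated pups and fresh 3 and 4, the median was 0.42 with 31 members higher. There Ccdc153 differed by 1.18 (SE 0.150), Hydin by 1.05 and Tmem212 by 0.94, and 4 members were called, namely Ccdc153, Iqca, Dnali1 and Meig1 (0.068% of all features). With slide as a block 17 members were called (1.34% of all features were called higher). Without the low-Hox pups none was, with a median of 0.39, and all 18 kept their sign.

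The members differed little between the slides in fresh pups and were more often lower on slide 2 in irradiated pups. Fresh pups of slide 2 and slide 1 differed by a median of 0.00 over the members, with 17 higher and 18 lower. Single genes departed from that: Dnah10, Tmem212 and Crocc2 were higher on slide 2 by 0.49, 0.46 and 0.38, and Hydin was lower by 0.37 (difference -0.37). Between irradiated pups of slide 2 and slide 1 the median difference was -0.12, with 11 members higher and 24 lower. Crocc2, at 0.33, was among those higher. With slide as a block the heated minus freeze-dried difference of Crocc2 was 0.82 in place of 1.18, below that of Ccdc153 (1.26 in place of 1.06). No member was called in either, where 1.44% of all features were called higher and 0.657% lower between the fresh slides, and 0.00378% each way between the irradiated slides.

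**Figure D3:**
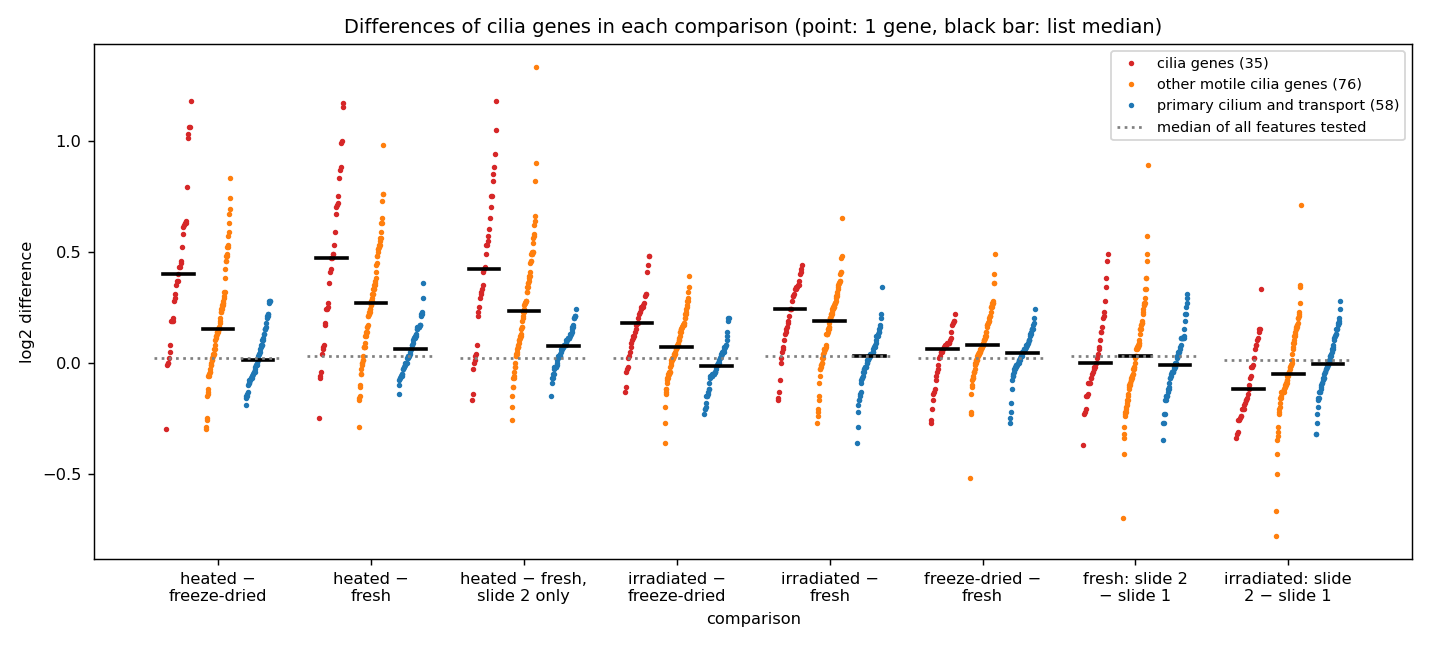
Log2 differences of the 35 motile cilia genes (red), 76 other motile cilia genes (orange) and 58 primary cilium and transport genes (blue) in 6 comparisons between groups or within slide 2 and in 2 comparisons between slides within a group; each point is 1 gene, black bars are list medians and dotted lines the median of all features. The red median is 0.40 for heated against freeze-dried and 0.42 for heated against fresh within slide 2, and 0.00 and -0.12 between slides.

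In pups of irradiated sperm the members lay at intermediate levels, between heated and freeze-dried pups for 27 of 35 group means. Against freeze-dried pups the median difference of the members was 0.18 beside 0.02 for all features, 30 of 35 were higher, and Iqca (0.48), Ak7 (0.48), Dnah10 (0.44) and Crocc2 (0.41) differed most. Iqca, Dynlrb2, Dnai2 and Meig1 did not overlap between these groups and were higher (2.78% of all features were higher and 1.82% lower without overlap). None was called by limma (0 of 26477 features were), and 13 members had an unadjusted p under 0.05, as did 7.23% of all features. Within slide 1 the median was 0.20 and 32 members were higher.

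The comparison of irradiated with fresh pups shares no pup with the heated against freeze-dried comparison, but the irradiated pups were known to be high when the set was listed, so its values are a description too. Here the median was 0.24 beside 0.03 for all features, 30 members were higher, 10 were higher and Rfx3 was lower without overlap. Of all features, 5.54% were higher and 3.54% lower without overlap. No member passed by limma (0.865% of all features were called higher and 0.51% lower), and 19 had an unadjusted p under 0.05, as did 16.9% of all features. Lrrc23 differed by 0.44 (SE 0.119), Meig1 by 0.37 (SE 0.088), Dynlrb2 by 0.34 and Dnali1 by 0.33. Foxj1 differed by 0.10 and Rfx3 by -0.16, and the sign of Rfx3 turned when its kept probes were averaged. Within slide 1 the median was 0.29 and 1 member, Meig1, was called (1.07% of all features were called higher); within slide 2 the median was 0.16 and 0 were called (0.00378% of all features). With slide as a block 0 were called as well, beside 1.47% of all features called higher.

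Heated pups exceeded irradiated pups in 31 members, by a median of 0.18 beside 0.00 for all features. The difference was called for Ccdc153 (0.75), Iqca (0.53), Crocc2 (0.77) and Tmem212 (0.75), where 0.536% of all features were called higher and 0.472% lower, and 16 members were higher without overlap (6.86% of all features) and 0 lower (6.19%). This comparison shares the heated pups with the one that chose the set. The median was 0.22 within slide 2, with 33 members higher and Ccdc153 called (0.0944% of all features), and with slide as a block 1 member was called (0.332%). The 4 calls became 0 without heated 2 or heated 4, between 1 and 2 without heated 1 or any 1 of the irradiated pups, 6 without fresh 1 and 0 without the low-Hox pups.

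The members differed little between freeze-dried and fresh pups. The median difference was 0.06 beside 0.02 for all features, 23 members were higher and 12 lower, and 0 were called by limma (0 of all features were). Differences ran from Ak7 (-0.27) and Mcidas (-0.26) to Rsph4a (0.22). Rfx3 (difference -0.14) was the 1 member with an unadjusted p under 0.05 (9.92% of all features) and the 1 member that was lower without overlap (1.55% of all features were); 0 were higher without overlap (2.6%). On its other kept probe Rfx3 differed by 0.14, with the opposite sign. All values of this comparison share the freeze-dried pups with the one that chose the set.

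Other genes of motile cilia, taken from a list that leaves out the 40, were tested in the same fit. Of 99 listed, 76 were measured, and 15 rose in heated against freeze-dried pups and 27 against fresh pups, with 0 lower in either (2.5% and 2.39% of all features rose). Their median differences were 0.15 and 0.27, smaller than those of the members, whose choice favours large values. The genes with the smallest p were Ccdc113, a protein of the base of cilia and the axoneme, the dynein intermediate chain Dnai3 (older name Wdr63), the doublet proteins Cfap45 and Pierce1, the doublet link protein Drc1 and the spoke protein Nme5. The list was drawn up with the behaviour of its relatives in these arrays known.

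Ccdc113 read -1.03, -0.90, -0.76 and -0.79 in fresh, -0.81, -0.92, -0.90 and -0.86 in freeze-dried, -0.58, -0.47, -0.55 and -0.59 in irradiated, and -0.33, -0.09, -0.42 and -0.12 in heated pups. The irradiated pups lay above the fresh and freeze-dried pups and below the heated pups, with no overlap. It rose by 0.63 (SE 0.078) in heated against freeze-dried pups (limma, adjusted p = 0.00377) and by the same 0.63 against fresh pups (adjusted p = 0.00243). Dnai3 rose by 0.67 and 0.73 in these comparisons (adjusted p = 0.00527 and 0.00261), and Pierce1 by 0.59 and 0.52 (adjusted p = 0.008 and 0.0107). Cfap45 rose by 0.52 and 0.59 (adjusted p = 0.0107 and 0.00554) and Drc1 by 0.30 and 0.36 (adjusted p = 0.0138 and 0.00597). Nme5 rose by 0.48 against fresh pups (adjusted p = 0.00765) and stood 0.28 above freeze-dried pups (adjusted p = 0.0616).

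In irradiated against fresh pups 3 of the 76 rose, named here after their values were seen: Fank1 (0.30, adjusted p = 0.0359), the kinesin Kif6 (0.40, adjusted p = 0.0369) and Nme5 (0.36, adjusted p = 0.04), beside 0.865% of all features. Kif6 read -1.59 ± 0.15 in irradiated and -1.71 ± 0.12 in heated pups against -1.99 ± 0.11 in fresh pups (SD, n = 4), so the heated group was not the highest for it. No gene of this list was called in irradiated or fresh against freeze-dried pups or in heated against irradiated pups (0 by limma, against 12, 18 and 19 with unadjusted values under 0.05, where 7.23%, 9.92% and 13.8% of all features had one). With slide as a block the counts were 0, 19 and 11 for heated against freeze-dried, heated against fresh and irradiated against fresh pups. Of all features, 0%, 1.34% and 1.47% were called higher in these fits. Without the low-Hox pups all 3 counts were 0, and without heated 2 they were 6, 14 and 2. The first count was 7 without freeze-dried 2 and 8 without heated 4, and the second was 18 without fresh 2. The third lay between 0 and 7, with 0 without fresh 1, fresh 3, irradiated 1, irradiated 2 or irradiated 3, 1 without fresh 2 or heated 3, 5 without freeze-dried 1 and 7 without fresh 4.

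Genes of the step before cilia growth, when a cell multiplies its centrioles, had a median difference near 0, and every gene called among them was called higher. Of 14 tested, 3 rose in heated against freeze-dried pups (2.5% of all features did) and the median difference was -0.08. Deup1, which builds the deuterosome on which new centrioles form, read -0.50, -0.58, -0.28 and -0.30 in fresh, -0.59, -0.66, -0.20 and -0.26 in freeze-dried, 0.02, -0.14, -0.12 and -0.29 in irradiated, and 0.36, 0.46, 0.21 and 0.44 in heated pups. No heated value overlapped with another group, and the gene rose by 0.79 against freeze-dried (adjusted p = 0.00527), 0.78 against fresh (adjusted p = 0.00427) and 0.50 against irradiated pups (adjusted p = 0.0498), by limma. Foxn4, a forkhead factor of multiciliated cells and neural progenitors, read -2.57 ± 0.20 in fresh, -2.37 ± 0.18 in freeze-dried, -2.09 ± 0.17 in irradiated and -1.60 ± 0.18 in heated pups (SD, n = 4). It rose by 0.77 and 0.97 against freeze-dried and fresh pups (adjusted p = 0.00977 and 0.00261). Myb, a factor acting early in the programme and in dividing progenitors, rose by 0.36 against freeze-dried pups (adjusted p = 0.0111) and stood 0.23 above fresh pups (adjusted p = 0.0669). With slide as a block the 3 calls against freeze-dried pups and that of Deup1 against irradiated pups ended (0.74, 0.70 and 0.29 for Deup1, Foxn4 and Myb, adjusted p = 0.185, 0.257 and 0.324, against freeze-dried pups). Those of Deup1 and Foxn4 against fresh pups passed (adjusted p = 0.0188 and 0.014). E2f4, a factor that acts with Mcidas, was named after its values were seen: it stood at -0.91, -0.85 and -0.77 in heated, irradiated and freeze-dried against fresh pups (SE 0.349, limma, adjusted p = 0.184, 0.238 and 0.493).

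Genes of the primary cilium, the single immotile cilium that most cells carry, and of the transport machinery that both kinds of cilium use were near the level of all features. Of 58 tested, 2 rose in heated against freeze-dried pups, Tctn2 (0.22, adjusted p = 0.0357) and Traf3ip1 (0.28, adjusted p = 0.0433), with a list median of 0.01, where 2.5% of all features rose. Tctn2, of the transition zone at the base of the cilium, also rose against fresh pups (0.22, adjusted p = 0.037). These 3 calls ended with slide as a block (Tctn2 0.13 and 0.18, Traf3ip1 0.21; adjusted p = 0.645, 0.108 and 0.615). The transport gene Ttc21b read 1.04, 0.98, 1.15 and 1.24 in the irradiated pups, against means of 1.46 ± 0.05 in fresh pups, 1.24 ± 0.07 in freeze-dried pups and 1.45 ± 0.02 in heated pups (SD, n = 4). It fell in irradiated against fresh pups (difference -0.36, adjusted p = 0.0148), the opposite direction from most members. Ttc21b and Traf3ip1 rose in heated against irradiated pups (0.34 and 0.32, adjusted p = 0.0173 and 0.0479), and Traf3ip1 did not pass with slide as a block (0.29, adjusted p = 0.124). None of 11 relatives of the members that serve outside motile cilia, among them Dynlrb1, Tppp, Crocc and Rfx1, was called in any of the 6 comparisons by limma (in the comparisons of heated with freeze-dried, fresh and irradiated pups 2, 1 and 1 had an unadjusted p under 0.05, and 0 in the others).

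Markers of neighbouring and precursor cells were measured beside the cilia genes. All 14 choroid plexus markers were well above background on all arrays. Their mean centred level was -0.295 to 0.070 in fresh, -0.181 to 0.233 in freeze-dried, -0.193 to 0.285 in irradiated and -0.109 to 0.224 in heated pups, so it did not separate the heated group. Their median heated minus freeze-dried difference was 0.02, and 1 of 14, the transcription factor Otx2, fell (difference -0.43, adjusted p = 0.011; -0.27, adjusted p = 0.366 with slide as a block). Against fresh pups it was 0.25, with 0 called by limma and 6 genes whose unadjusted p was under 0.05.

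Astrocyte and radial glia markers had a mean centred level of -0.146 ± 0.222 in fresh, -0.105 ± 0.105 in freeze-dried, 0.040 ± 0.052 in irradiated and 0.212 ± 0.149 in heated pups (SD, n = 4). Of 10, 2 rose in heated against freeze-dried pups, Gfap (0.78, adjusted p = 0.039) and the glutamate transporter Slc1a2 (0.43, adjusted p = 0.036), where 2.5% of all features rose. Neither passed with slide as a block (0.90 and 0.22, adjusted p = 0.357 and 0.742), and the list median was 0.10 in place of 0.25. The list also differed between slides, by a median of 0.29 with 9 of 10 higher on slide 2 in fresh pups, and within slide 2 heated exceeded fresh pups by 0.12 with 6 of 10 higher. Gfap, the astrocyte filament, read -0.69 ± 0.25 in fresh, -0.45 ± 0.36 in freeze-dried, -0.15 ± 0.36 in irradiated and 0.33 ± 0.13 in heated pups, and also rose against fresh pups (1.03, adjusted p = 0.0132; 1.09, adjusted p = 0.0339 with slide as a block). Cell division genes ran the other way, at 0.068 ± 0.157, 0.136 ± 0.073, 0.003 ± 0.103 and -0.207 ± 0.078 in the same order. All 14 were lower in heated than in freeze-dried pups, with a median of -0.36, and 6 fell (1.36% of all features did). The slide block gave a median of -0.26, and 0 were called by limma, against 6 with an unadjusted p under 0.05. The part of these cell types in the cilia gene differences was not tested.

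Of 5 ventricular lining genes without a ciliary role (Vim, Cd24a, Prom1, Ank3 and S100b), 0 were called between heated and freeze-dried pups, with a median difference of 0.00 and 1 gene under 0.05 unadjusted (limma). Prom1, a membrane protein of the ventricular surface, fell in irradiated against fresh pups (difference -0.40, adjusted p = 0.0369) and in heated against fresh pups (-0.36, adjusted p = 0.0383). The ependymal label thus rests on the cilia genes and on the ependymal markers among them. Airway and olfactory markers, which could mark other ciliated tissue, were well above background on all arrays for 4 of 7 (Bpifa1, Bpifb1, Sec14l3 and Omp), and Scgb1a1, which defines the airway secretory cell, was on no array. Of the 5 tested, Sec14l3 rose in heated against freeze-dried pups (0.45, adjusted p = 0.0311; 0.23, adjusted p = 0.715 with slide as a block) and stood 0.32 above fresh pups (adjusted p = 0.117). Omp read -0.56 in irradiated 3 and -1.68 in freeze-dried 2, against -3.18 ± 0.54 in fresh and -3.28 ± 0.22 in heated pups (SD, n = 4). The part of airway or olfactory tissue in the cilia gene differences was not tested.

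**Figure D4:**
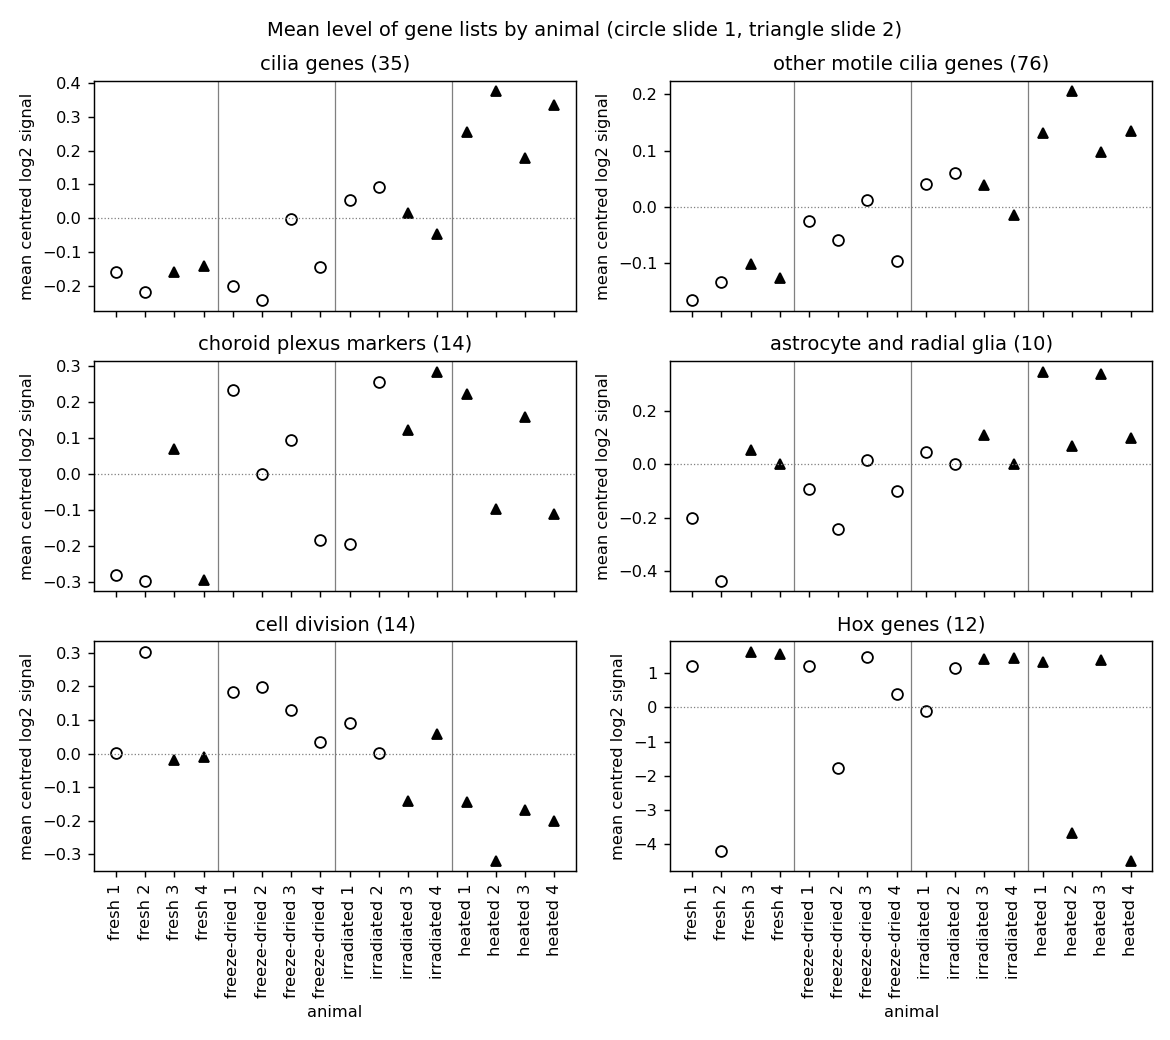
Mean centred log2 signal of 6 gene lists in each of 16 pups (circles slide 1, triangles slide 2; vertical lines separate the groups; vertical scales differ between panels). The motile cilia genes lie between 0.177 and 0.374 in the heated pups and at or below 0.091 elsewhere; choroid plexus markers show no such separation, cell division genes are lowest in heated pups, and the Hox panel shows the pups low in hindbrain signal.

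The pups low in Hox genes did not share a level of cilia genes. Heated 2 and 4 had the highest mean of all pups (0.374 and 0.335) and fresh 2 and freeze-dried 2 the lowest of their groups (-0.216 and -0.242). The part of the brain region sampled in these differences was not tested beyond the values without these pups. The Y-linked signal, which marks male pups, differed between the groups as well. It was high in 4 freeze-dried pups and 1 heated pup, so the sex of the pups largely ran with these groups. The part of sex in the cilia gene differences was not tested beyond a fit with this signal as a covariate. In that fit 11 members were called between heated and freeze-dried pups, where 18 were without it. The share of all features called with the covariate is not given, so nothing is read from this drop.

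Within groups, the members varied together from pup to pup. With group means removed, the correlation of each member with the mean of the other members over 16 pups had a median of 0.44, against 0 for all 15958 named genes, and 15 of 35 members were above 0.5, against 5.41% of all named genes. All members share the same arrays and brains, and these values are a description with no test. The radial spoke gene Rsph1 (0.85), the outer arm gene Dnah5 (0.80), Lrrc23 (0.80), Ccdc153 (0.74), Tmem212 (0.71), Foxj1 (0.67) and Tekt4 (0.67) followed the set most closely. Mlf1 (-0.55), Dnah7a (-0.27), Spag16 (-0.19), Rsph9 (-0.14), Tekt1 (-0.03) and Mcidas (0.00) did not follow it. Apart from Rsph9 and Mcidas, which stood 0.19 higher, these differed by 0.05 or less between heated and freeze-dried pups. Weak likeness did not always go with a small difference. Crocc2 (correlation 0.16) had the largest difference, 1.18, and Dnah9 (0.15) differed by 0.35, whereas Tppp3 (0.17) differed by 0.02.

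The 10 named genes outside the set whose level was most like the mean of the members over the same 16 pups, again with group means removed, were Nwd2 (correlation 0.891), Smim24 (0.874), Akap7 (0.865), Esr1 (0.853), Dnai3 (listed as Wdr63, 0.848), Zmynd10 (0.847), Arpp21 (0.836), Gm31267 (0.83), Car9 (0.819) and Tceanc2 (0.819). Without freeze-dried 3 and heated 3 these correlations lay between 0.712 and 0.889. Dnai3 and Zmynd10, a dynein assembly factor, are in the list of other motile cilia genes. Esr1, the oestrogen receptor, read -2.68 ± 0.12 in fresh, -2.73 ± 0.17 in freeze-dried, -2.62 ± 0.17 in irradiated and -2.27 ± 0.22 in heated pups (SD, n = 4). Tceanc2 read -1.24 ± 0.01, -1.22 ± 0.14, -1.21 ± 0.06 and -1.32 ± 0.15 in the same order, so likeness within groups did not always go with a higher heated mean.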

How the data were processed

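The authors hybridized whole-brain RNA of 16 pups to one-colour Agilent arrays. The submitters' processing notes name Feature Extraction, version 11.0.1.1, as the image software. The deposited scanner files hold fluorescence intensity per spot (background-subtracted processed signal and raw median signals) and quality flags, per the file headers. Values that the authors deposited beside these cover 31313 probes on a log2 scale; how the authors made them is not given in the sources used here, and they were used as an alternative only.

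Each array has 62976 spots, 3671 of them controls. Spots of a probe were averaged after 2043 outlier-marked spot values were left out (56605 probes, 50 values missing on an array, 0 saturated spots). The processed intensity was divided by the 75th percentile over probes of each array and put on the log2 scale. Probes that were well above background in every pup of some group were kept (34261), and the brightest of them stood for a gene: 26477 features, 15993 with a RefSeq symbol. All 16 arrays were fitted with limma 3.58.1 in R 4.3.3 (with data.table, version 1.17.8) as 4 group means with 12 residual degrees of freedom. Two-sided moderated tests were adjusted by Benjamini-Hochberg over all features, and called means an adjusted p under 0.05. The script was tested on simulated data. The number of arrays limits the precision.

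The members and lists were chosen with earlier results of these data known. Named genes were the regulators Foxj1, Mcidas, Ccno, Rfx2 and Rfx3, the 8 members with the largest heated minus freeze-dried difference, up to 6 genes of smallest p from each other list, and the 10 genes most like the members. Other members are given by range or as examples of their part of the cilium. Alternatives were slide or replicate as a block, normexp with an offset of 50 (on median spot signals, since mean signals were not used here), quantile normalization, no filter, the mean of probes, the authors' deposited log2 values, fits of only the groups compared, a Y-linked covariate, and leaving out pups. Pups of the same replicate number were not treated as pairs.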

Additional observations from a re-analysis of the deposited data

Results flagged for a closer look

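Among 140 sets of 4 pups examined (1 per measured motile cilia gene and group), 4 held a pup far from the other 3; chance marks about 1 in 20 such sets. Ccdc153 in fresh 2 was -1.81, where the other fresh pups lay between -1.94 and -1.93. Dnah2 in irradiated 1 was -0.56, where the others lay between -0.25 and -0.2. Dnah5 in the same pup was -1.93, where the others lay between -2.15 and -2.13. Mcidas in heated 4 was 3.44, where the others lay between 3.55 and 3.57.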

How the results depend on the processing

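Of the alternatives run on the counts of called motile cilia genes, heated against freeze-dried (18) gave 0 with slide as a block and with the deposited table, 11 with the Y-linked covariate, 1 without the low-Hox pups, and 10 to 19 when 1 pup was left out. Heated against fresh (18) gave 7 with only these groups in the fit, 0 without the low-Hox pups and 14 to 18 without 1 pup. Heated against irradiated (4) gave 1 with slide as a block and with no filter, 0 with the table and without the low-Hox pups, 2 with the covariate and 0 to 6 without 1 pup. The other 3 comparisons gave 0 in every alternative without 1 pup. Median differences that moved by more than the spread were 0.24 (heated against freeze-dried) and 0.07 (irradiated against freeze-dried) with the table, 0.33 with normexp, 0.36 with the table and 0.39 without the low-Hox pups (heated against fresh), and 0.13 with normexp (irradiated against fresh). Without 1 pup the medians were 0.35 to 0.48 (heated against freeze-dried), 0.13 to 0.25 (irradiated against freeze-dried), 0.01 to 0.09 (freeze-dried against fresh), 0.41 to 0.48 (heated against fresh), 0.20 to 0.25 (irradiated against fresh) and 0.18 to 0.21 (heated against irradiated). The counts for other motile cilia genes, added after the data were seen, were as follows. Heated against freeze-dried (15) gave 0 with slide as a block, the table or without low-Hox pups, 8 with the covariate and 6 to 19 without 1 pup. Heated against fresh (27) gave 17 with no filter, 13 with the table, 2 with only these groups, 0 without low-Hox pups and 14 to 30 without 1 pup. Irradiated against fresh (3) gave 11 with slide as a block, 1 with the mean of probes, 7 with the table, and 0 with normexp, no filter, only these groups, the covariate or without low-Hox pups, and 0 to 7 without 1 pup. In irradiated against fresh pups Hydin (0.05) turned to -0.01 with normexp, -0.01 with quantile normalization, -0.03 with the table and -0.06 without fresh 3 (0.16 at most, without fresh 1), and Rfx3 (-0.16) to 0.04 with the mean of probes; the cause was not tested. Pups of the same replicate number did not deviate together (24 pairs, median correlation 0.029, 10 over 0.1; 72 other pairs, -0.019); the replicate block moved the irradiated against fresh count of other motile cilia genes from 3 to 1 and kept every other count within 1.5 times. Rfx2, near background, is limited by signal. All-feature shares are given only for the main fit and the fits with slide, so the other counts cannot be set against them.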
